A study of Mus musculus with 9 samples.

Results

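Immediate early and stress response genes were measured in the jejunum, the middle section of the small intestine, of 9 male mice of the outbred stock OF1. The members were Fos, Fosb, Jun, Junb, Jund, Egr1, Atf3, Ier2, Ier3 and Dusp1, a list of 10 genes among the 15961 gene symbols of the arrays. Of these, 9 were found by their symbol, and Jund was found by its RefSeq accession under the older symbol Jund1. Each of the 10 members had 1 probe. A spot counted as detected from a signal-to-noise ratio of 3 upwards. Of the members, 8 were detected on all 9 arrays, Fosb was detected on 6 and Ier3 on 5.

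The mice were aged 7 weeks and belonged to generation 3 of a feeding trial in which mice received feed B, feed K or feed G throughout, with free access to feed and water. There were 3 mice per feed, 1 mouse per array. The labels do not say what the letters stand for, and no feed is named as the control. All 3 groups shared the stock, the sex, the age, the tissue and a light and dark cycle of equal length, and were killed by vertebral dislocation. The time of day of sampling was not randomized. According to the methods, food was withheld for some hours before sampling, and a short segment around the midpoint of the small intestine was frozen at once. OF1 mice are not inbred, so each mouse also has its own genotype.

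Immediate early genes are switched on within minutes of a stimulus, without the need for new protein. Growth factors, stretch, injury and the handling of tissue can reach them through MAP kinases, serum response factor and CREB, and their mRNAs decay fast. In the intestine they are known to respond to feeding and to damage of the epithelium. Fos, Fosb, Jun, Junb and Jund encode subunits of the transcription factor AP-1, and Egr1 and Atf3 encode other transcription factors of the early response. Ier2 and Ier3 encode small proteins of the same response, and Dusp1 encodes a phosphatase that switches MAP kinases off. The question was how far these genes varied between mice, whether they varied together, and whether they differed between the feeds.

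The promoter windows of 5 members are shown because the 3 pairs with the highest correlation over the mice, below, involve Junb, Jund, Atf3 and Dusp1 beside Ier2, and because Fos had low r with each of these. They are from RefSeq, build GRCm38.p6, and run from 250 bases before to 50 after the annotated start of the gene, 5′ to 3′ on the strand of the gene. The Fos window is chr12:85473640-85473939 on the + strand, the Junb window chr8:84978699-84978998 on the - strand, the Jund window chr8:70697489-70697788 on the + strand, the Atf3 window chr1:191183284-191183583 on the - strand, and the Dusp1 window chr17:26508423-26508722 on the - strand. Capitals mark matches to TGACGT, the core of the cyclic AMP response element (CRE) that CREB and ATF proteins bind, and to TATAAA, the TATA box.
Fos: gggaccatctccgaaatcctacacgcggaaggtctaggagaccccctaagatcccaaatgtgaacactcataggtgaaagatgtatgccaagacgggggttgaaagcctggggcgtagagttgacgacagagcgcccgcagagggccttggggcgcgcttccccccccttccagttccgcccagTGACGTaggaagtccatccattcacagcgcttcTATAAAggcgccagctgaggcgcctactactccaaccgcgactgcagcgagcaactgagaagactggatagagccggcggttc
Junb: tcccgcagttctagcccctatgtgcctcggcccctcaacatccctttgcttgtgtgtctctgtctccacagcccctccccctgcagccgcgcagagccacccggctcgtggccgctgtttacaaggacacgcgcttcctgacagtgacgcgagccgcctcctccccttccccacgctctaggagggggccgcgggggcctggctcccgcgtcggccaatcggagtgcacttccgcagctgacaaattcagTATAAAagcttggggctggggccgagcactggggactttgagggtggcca
Jund: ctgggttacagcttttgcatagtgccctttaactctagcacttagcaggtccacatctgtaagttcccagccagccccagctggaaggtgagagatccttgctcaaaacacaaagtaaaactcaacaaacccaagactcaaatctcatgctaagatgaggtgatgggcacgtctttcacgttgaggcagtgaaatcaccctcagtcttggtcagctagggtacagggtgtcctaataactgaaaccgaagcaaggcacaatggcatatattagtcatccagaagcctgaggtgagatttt
Atf3: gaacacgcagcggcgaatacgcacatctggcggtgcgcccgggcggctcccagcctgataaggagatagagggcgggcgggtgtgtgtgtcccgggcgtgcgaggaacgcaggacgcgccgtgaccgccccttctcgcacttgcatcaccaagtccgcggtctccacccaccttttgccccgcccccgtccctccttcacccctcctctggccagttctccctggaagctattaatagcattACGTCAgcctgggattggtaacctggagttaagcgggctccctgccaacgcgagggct
Dusp1: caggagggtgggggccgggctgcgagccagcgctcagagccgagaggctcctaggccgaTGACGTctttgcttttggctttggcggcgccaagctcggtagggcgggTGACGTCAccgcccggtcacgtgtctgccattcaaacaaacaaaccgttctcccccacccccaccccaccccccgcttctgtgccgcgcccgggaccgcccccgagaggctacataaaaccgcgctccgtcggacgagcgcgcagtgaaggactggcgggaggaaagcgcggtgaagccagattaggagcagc

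Windows were at hand for 8 of the 10 members, all but Egr1 and Ier2. Both strands were searched, and a match is a match of letters only. TGACGT or its complement ACGTCA was found in 3 of the 8 windows, those of Fos, Atf3 and Dusp1, and in 7.51% of all 32851 windows of the table. In Fos it began 66 bases before the start, next to the TATA box at 33 bases before it. The Dusp1 window held the whole palindrome TGACGTCA, which reads the same on both strands, 143 bases before the start, and a further TGACGT 191 bases before it. The whole palindrome was present in 1.79% of all windows. Atf3 held ACGTCA 8 bases before the start. TATAAA was found in 2 of the 8 windows, Fos and Junb, compared with 13.6% of all windows. The match in Junb began at the annotated start itself, not upstream of it as in Fos. The Jund window held none of the motifs searched. The GC box GGGCGG, not capitalized, was found in 6 of 8 windows and in 35.7% of all windows, with 5 matches in Atf3 and 3 each in Fosb and Dusp1, some of them overlapping. GCGGGGGCG, the site of EGR proteins, was found in Fosb alone among the 8 windows, 50 bases before the start, and in 2.91% of all windows.

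The arrays differed in how much they detected, which bears on every value below. The share of detected probes was between 33.7% and 43.6% in feed B, between 41.2% and 47.6% in feed K and between 46.4% and 48.1% in feed G, so that feeds B and G did not overlap. The 6 enterocyte markers with a probe, among them Vil1, Fabp2 and Apoa1, were detected on all 9 arrays. Fabp6, a bile acid binding protein typical of the ileum, had a log2 signal between 4.67 and 19.51, and was highest in mouse 11 of feed G and mouse 10 of feed B. Of the 5 markers of the exocrine pancreas with a probe, Ela1 was detected on 9 arrays, Amy2 on 2, Cel on 1, and Prss2 and Pnlip on 0. Of the 3 red blood cell markers, Hba-a1 was detected on 9 arrays, Alas2 on 3 and Slc4a1 on 0. The neutrophil markers S100a8 and S100a9 were detected on 1 and 0 arrays. A jejunal segment holds many cell types, and fewer cells of a type and less RNA per cell cannot be told apart in it. Unless another scale is named, values below are log2 signal after quantile normalization over the 9 arrays, a step that gives every array the same distribution of signals. Signals of different probes were not compared with each other.

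Fos (probe 463565, chr12:85473890-85477274, GRCm38.p6), the founding member of the AP-1 family, was clearly detected in every mouse, with a signal-to-noise ratio between 30.5 and 94.8. In feed B its log2 signal was 12.99, 14.06 and 13.49 in mice 7, 8 and 10. In feed K it was 14.35, 12.91 and 13.27 in mice 1, 3 and 4. In feed G it was 14.30, 14.04 and 13.39 in mice 4, 8 and 11. High and low mice were thus present in each feed, and the highest and the lowest value were both from feed K. The signal of the highest mouse was 2.72 times that of the lowest, and the SD over the 9 mice was 0.56. The means were 13.51 ± 0.53 for feed B, 13.51 ± 0.75 for feed K and 13.91 ± 0.47 for feed G (SD, n = 3). The order of the mice depended on the scaling: mouse 3 of feed K was the lowest after quantile normalization, whereas its deposited signal of 11396 was the median of the deposited signals, which ran from 4816 in mouse 7 of feed B to 23241 in mouse 8 of feed G.

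Fosb (probe 410156, chr7:19302696-19310118), whose product pairs with Jun proteins as Fos does, lay near the limit of detection. It was detected in the 3 mice of feed B, at 7.09, 7.27 and 7.10 in mice 7, 8 and 10. In feed K it was detected in mice 1 and 3, at 8.40 and 7.29, and not in mouse 4. In feed G it was detected in mouse 11 alone, at 7.98, and not in mice 4 and 8. The values of the 3 mice in which it was not detected, 5.77, 6.51 and 5.09, are signals at the background and enter the SD of 1.03 and the feed test below.

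The Jun family covered a wide range of spreads. Jun (probe 534427, chr4:95049036-95052222), the partner of Fos in classic AP-1, was 12.92, 12.84 and 12.47 in mice 7, 8 and 10 of feed B. It was 13.10, 12.97 and 12.64 in mice 1, 3 and 4 of feed K. In mice 4, 8 and 11 of feed G it was 12.86, 12.59 and 12.44. The feeds overlapped, and the SD of 0.23 was smaller than that of most genes.

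Junb (probe 631627, chr8:84976909-84978748), an AP-1 subunit that can restrain Jun, was 9.55, 10.63 and 10.15 in mice 7, 8 and 10 of feed B. It was 10.53, 10.44 and 11.13 in mice 1, 3 and 4 of feed K. It was 10.30, 8.78 and 10.16 in mice 4, 8 and 11 of feed G. All 3 mice of feed K lay above the 3 of feed G, and mouse 8 of feed G was the lowest of all. The highest signal was 5.11 times the lowest.

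Jund (probe 627545, chr8:70697739-70700616), a subunit that is usually present without stimulation, had the largest SD of the 8 members detected on all 9 arrays, 0.82. It was 10.51, 9.93 and 11.63 in mice 7, 8 and 10 of feed B. It was 11.61, 12.12 and 11.68 in mice 1, 3 and 4 of feed K. It was 10.46, 10.39 and 12.01 in mice 4, 8 and 11 of feed G. The mice of feed K were all high, and feeds B and G each held 1 high mouse and 2 low ones. In mouse 8 of feed B the signal-to-noise ratio was 3.15, just above the limit of detection.

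Egr1 (probe 524988, chromosome 18), a zinc finger factor that binds GC-rich sites, was 9.35, 9.35 and 9.11 in mice 7, 8 and 10 of feed B. It was 9.89, 8.85 and 8.42 in mice 1, 3 and 4 of feed K. It was 8.92, 8.37 and 9.19 in mice 4, 8 and 11 of feed G. The 3 mice of feed B were close together, and feed K held a mouse above and 2 mice below all of them.

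Atf3 (probe 576652, chr1:191170296-191183333), a stress-induced factor that mostly represses, was 11.67, 11.50 and 11.85 in mice 7, 8 and 10 of feed B. It was 12.04, 12.20 and 11.35 in mice 1, 3 and 4 of feed K. It was 11.68, 11.12 and 12.06 in mice 4, 8 and 11 of feed G. Feed B again had the narrowest range and lay inside those of both other feeds.

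Ier2 (probe 332032, chr8:84661331-84662852), a small nuclear protein of the early response, was the steadiest member. It was 12.55, 12.86 and 12.54 in mice 7, 8 and 10 of feed B. It was 12.66, 12.59 and 12.78 in mice 1, 3 and 4 of feed K, and 12.45, 12.36 and 12.54 in mice 4, 8 and 11 of feed G. The highest signal was 1.42 times the lowest, and the mice of feed K all lay above those of feed G. Ier3 (probe 905471, chr17:35821713-35822911), a stress-induced protein that protects cells from death, was detected in mouse 10 of feed B at 8.58, in mice 1 and 3 of feed K at 9.03 and 8.34, and in mice 4 and 8 of feed G at 8.86 and 8.80. Its highest value, 9.65 in mouse 8 of feed B, had a signal-to-noise ratio of 0.79 and was not detected.

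Dusp1 (probe 303843, chr17:26505591-26508472), the phosphatase that ends MAP kinase signalling, was 9.56, 9.74 and 9.73 in mice 7, 8 and 10 of feed B. It was 9.93, 9.99 and 8.97 in mice 1, 3 and 4 of feed K. It was 9.25, 9.62 and 9.95 in mice 4, 8 and 11 of feed G. Both its highest and its lowest mouse were from feed K, and the signal of the highest was 2.03 times that of the lowest.

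**Figure D1:**
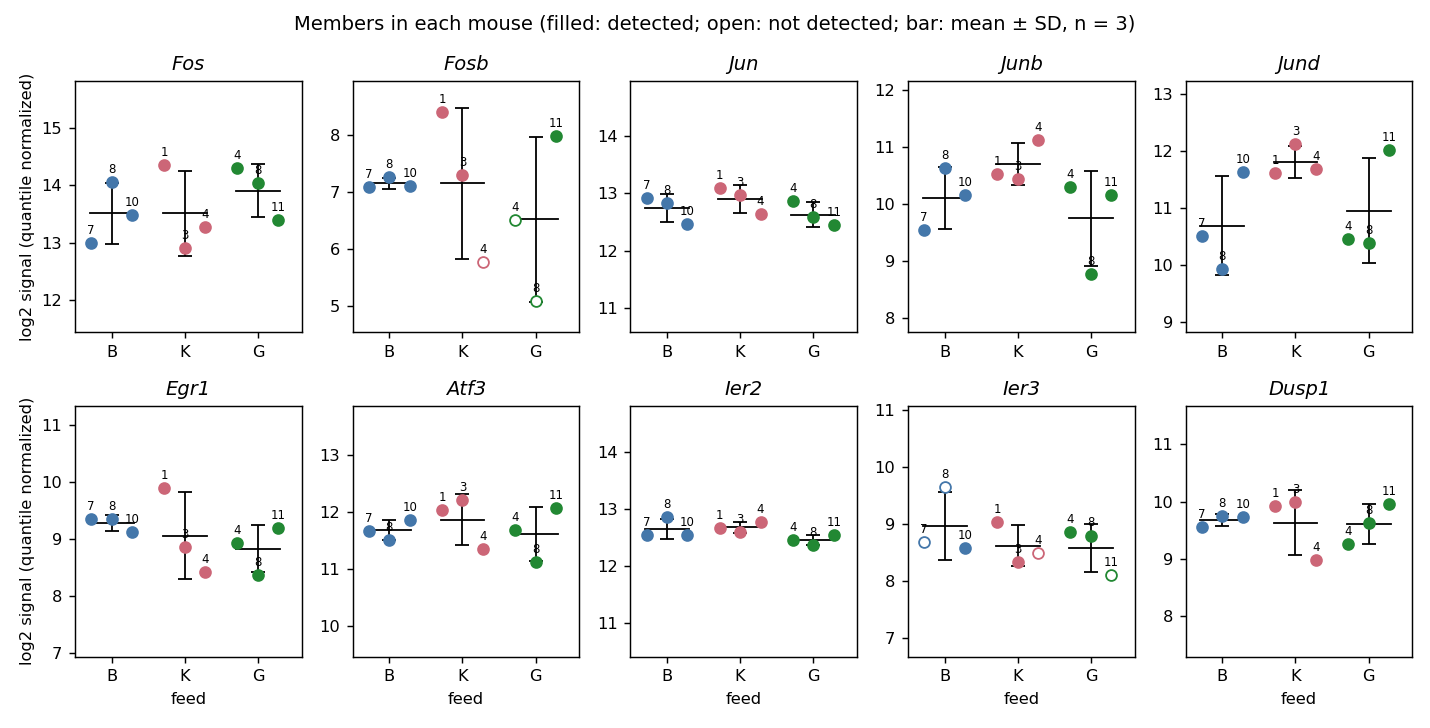
Log2 signal after quantile normalization (y axis, the same span of 4.4 in each panel) of the 10 members in each mouse, by feed (x axis), with the mouse number above each point. Filled points are detected and open points are not, lines and bars are the mean ± SD of 3 mice; the feeds overlap in each panel, except feeds K and G in those of Junb and Ier2.

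Set against all genes detected on all 9 arrays, members spread more widely than the typical gene, with exceptions. The median SD over the 9 mice was 0.29 for 5992 genes and 0.42 for the 8 members detected on all arrays, and 6 of the 8 lay above 0.29. Jund (0.82), Junb (0.68), Fos (0.56) and Egr1 (0.48) had a larger SD than 96.4%, 93.4%, 88.2% and 81.6% of the genes, respectively. Atf3 (0.36) and Dusp1 (0.34) lay closer to the middle, above 63.9% and 60.8%. Jun (0.23) and Ier2 (0.16) were below it, with 32.2% and 9.7% of the genes having a smaller SD. The spread was mainly within feeds: after subtracting the feed means, the SD was 0.74 for Jund, 0.62 for Junb, 0.60 for Fos and 0.50 for Egr1. These are descriptions, with no test. With each array scaled to its median instead, the SD of Jun, Atf3, Ier2 and Dusp1 rose to 0.38, 0.61, 0.28 and 0.60. The median SD of all genes on that scale is not given here, so these values cannot be set against 0.29.

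**Figure D2:**
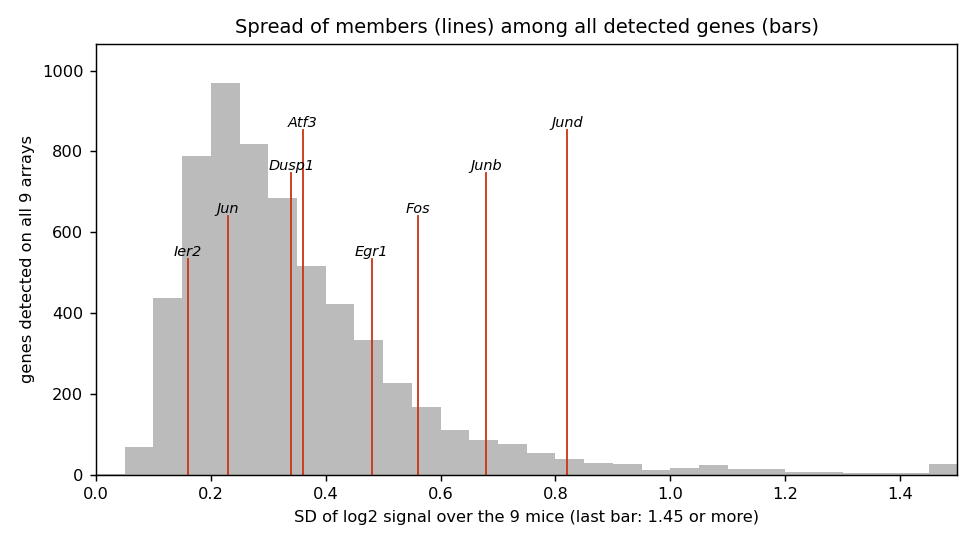
Number of genes detected on all 9 arrays (grey bars, y axis) by SD of log2 signal (x axis), with the 8 members detected on all arrays as labelled lines of arbitrary height. Ier2 (0.16) and Jun (0.23) lie left of the median gene (0.29), and Junb (0.68) and Jund (0.82) lie far in the right tail.

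No member differed between the feeds beyond the spread between mice. In the F test of limma over the 3 feeds, none of the 10 members passed an adjusted p of 0.05, and adjusted p-values were between 0.892 and 0.996. This matches the background, since 0 of 9856 genes (0%) passed. At an unadjusted p below 0.05 the F test took 537 genes (5.45%), but no member, the smallest value being 0.159 for Jund (limma). Between each pair of feeds the same fit called 0% of the genes. At the unadjusted threshold it took 6.5% of them between B and K, 5.78% between B and G and 4.69% between K and G, again without a member. An exact permutation test of the F statistic for each member, over all 280 divisions of the mice into 3 groups of 3, gave p-values between 0.146 for Ier2 and 0.975 for Dusp1, where 0.00357 is the smallest possible value.

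The largest differences between feeds were those of Jund and Junb. Jund differed by 1.11 ± 0.54 (log2, SE) for K minus B, with a 95% interval from -0.13 to 2.35 (adjusted p = 0.778, limma). Junb differed by -0.95 ± 0.46 for G minus K, with an interval from -2.00 to 0.09 (adjusted p = 0.948). Fos differed by 0.40 ± 0.44 for G minus B, with an interval from -0.61 to 1.42. For Ier2, the interval of K minus B was from -0.37 to 0.43, so that a larger change than this lay outside it, whereas for Fosb the interval reached from -1.84 to 1.84 and left room for a several-fold difference. Values of the mice did not overlap for 0 of 10 members between feeds B and K (9.93% of genes), for 0 between feeds B and G (10.8% of genes), and for 2, Junb and Ier2, between feeds K and G (13.7% of genes). With so few members the last count is near the background.

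Scaling mattered for some signs. For Egr1, K minus B was -0.22 after quantile normalization and 0.20 after median scaling, and G minus B was -0.44 and 0.11. Median scaling of the arrays shifted the median difference of all genes to 0.40 for K minus B and 0.53 for G minus B, from 0.05 and 0.06. Relative to these medians the difference of Fos was 0.02 and 0.43, that of Egr1 -0.21 and -0.42, and that of Jund 1.16 and 0.32. These were close to the differences after quantile normalization, 0.00 and 0.40 for Fos, -0.22 and -0.44 for Egr1, and 1.11 and 0.26 for Jund. Those of Fosb were further apart, -0.33 and -1.26 relative to the medians and -0.00 and -0.63 after quantile normalization. No member passed the adjusted threshold on the median scale either. Unadjusted p-values below 0.05 on it were 0.0409 for Junb and 0.0429 for Jund, both for K minus B (adjusted p = 0.383 each, limma). The share of all genes below 0.05 on this scale is not given here.

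Correlations between members over the mice ranged from negative to high. Among the 8 members detected on all arrays there are 28 pairs, and their Pearson r over the 9 mice ran from -0.47 to 0.79, with a median of 0.21. The r was above 0 in 20 of 28 pairs (71.4%), compared with 51.9% of all 17949036 pairs of genes detected on all arrays. No pair reached an r of 0.8, which 1.41% of all gene pairs did. The median of 0.21 rested on particular mice: it was 0.05 without mouse 1 of feed K, with 14 of 28 pairs above 0, and 0.12 without mouse 8 of feed G, with 15 of 28. It was between 0.18 and 0.31 when any other mouse was left out.

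The highest r was between Junb and Ier2, 0.79 (exact permutation p = 0.0119, two-sided, Spearman rho 0.83, exact p = 0.00827). Without the 2 mice farthest from the median of Junb, mouse 4 of feed K and mouse 8 of feed G, r was 0.55, and with feed means subtracted it was 0.74. This was the only pair with an exact p of r below 0.05. Atf3 and Dusp1 followed each other with r = 0.65 (exact p = 0.0557, rho 0.75, exact p = 0.0255), 0.79 without the 2 farthest mice and 0.69 within feeds. Jund and Atf3 had r = 0.67 (exact p = 0.0542, rho 0.68, exact p = 0.0503), and 0.51 without the 2 farthest mice.

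Egr1 was nearest to Atf3 and Dusp1, with r = 0.58 (exact p = 0.1, rho 0.33, exact p = 0.385) and r = 0.55 (exact p = 0.129, rho 0.35, exact p = 0.359). Without mouse 1 of feed K and mouse 8 of feed G, the 2 farthest from the median of Egr1, the former was 0.20 and the latter 0.61. The r of Fos with the 7 others was between -0.47 (Jund, exact p = 0.193, rho -0.62, exact p = 0.0857) and 0.24 (Egr1, exact p = 0.53, rho 0.37, exact p = 0.336). Its r with its AP-1 partner Jun was 0.19 (exact p = 0.611, rho 0.08, exact p = 0.843) and -0.35 without the 2 farthest mice. The 28 pairs share genes and mice. Further correlations were computed for Fosb, for Ier3 and for the genes of the lists below, so the exact p-values are a selection from many.

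The slope of every detected gene on each of the 8 members was also fitted with limma over all genes. After adjustment over all genes, 0 of 47928 slopes passed (0%), and the smallest adjusted p of a slope between members was 0.158, that of Junb on Ier2. At an unadjusted p below 0.05 between 94 (1.57%, for Egr1) and 997 (16.6%, for Ier2) of 5991 genes were taken. Fosb, which was left out of the 28 pairs, had an r of 0.89 with Egr1 and 0.85 with Atf3 over the 9 mice. Over the 6 mice in which it was detected, a choice made after seeing the data, r was 0.66 (exact p = 0.153, rho 0.26, exact p = 0.658) and 0.48 (exact p = 0.332, rho 0.60, exact p = 0.242). The higher values thus include mice in which Fosb was at the background. Ier3, also left out of the 28 pairs, had an r of 0.66 with Fos and -0.76 with Jund over the 9 mice, and it was detected in 5 of them, too few for a value over detected mice alone.

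**Figure D3:**
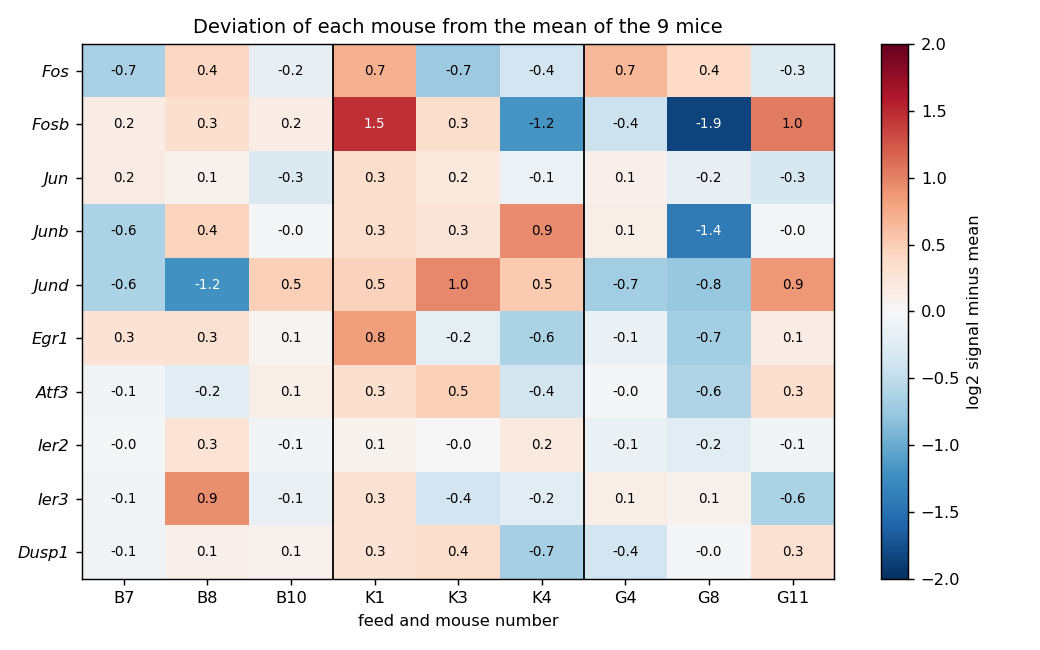
Deviation of each mouse (x axis, feed letter and mouse number) from the mean of the 9 mice for each member (y axis), in log2 signal after quantile normalization, given by the colour and the printed value. Red and blue alternate between members within most columns; mouse 1 of feed K is above the mean in all 10 members, and mouse 8 of feed G is the lowest mouse in 5 of 10.

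Some mice stood at the ends for several members. Mouse 1 of feed K was the highest mouse for 4 of 10 members, Fos, Fosb, Jun and Egr1, and the 8 members detected on all arrays were on average 0.42 above their means there. Mouse 8 of feed G was the lowest for 5 members, Fosb, Junb, Egr1, Atf3 and Ier2, with an average of -0.43, although Fos was above its mean in this mouse. Mouse 3 of feed K was the highest for Jund, Atf3 and Dusp1 and the lowest for Fos. With median scaling the counts were 3 highest for mouse 1 and 5 for mouse 3 of feed K, and 2 lowest for mouse 8 of feed G. On that scale mouse 8 of feed B and mouse 4 of feed K were the lowest for 3 members each, and mice 7 and 8 of feed B had average deviations of -0.63 and -0.58, with 0 of the 8 members above their median. The low position of mouse 8 of feed G therefore depended on the scaling, and this array had the highest share of detected probes, 48.1%. Whether handling, time of day or the site of the segment had a part in these positions was not tested.

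How strongly members appeared to move together depended on the normalization. When each array was scaled to its median, r was above 0 in all 28 pairs, with a median of 0.61, and 5 pairs (17.9%) reached 0.8. These were Atf3 with Dusp1 (0.88), Ier2 (0.86), Jund (0.85) and Jun (0.81), and Jund with Ier2 (0.87). On that scale, however, 90.6% of all gene pairs had an r above 0 and 18.1% reached 0.8, so that the share of member pairs at 0.8 was close to that of gene pairs in general. In the deposited table of normalized signals, 2 pairs (7.14%) reached 0.8, compared with 7.9% of all pairs. After median scaling, the share of detected probes per array had an r of 0.75 with Ier2 and 0.68 with Jund and Atf3. It was 0.66 with Jun and Dusp1, 0.51 with Fos, 0.24 with Egr1 and 0.22 with Junb. After quantile normalization it was -0.72 with Ier2, 0.47 with Jund, 0.22 with Atf3, -0.29 with Jun and 0.14 with Dusp1. On that scale it was 0.01 with Fos, -0.45 with Egr1 and -0.29 with Junb. With that share regressed out of the quantile normalized values, Junb and Ier2 had an r of 0.87, and r of the 28 pairs was between -0.54 and 0.87.

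**Figure D4:**
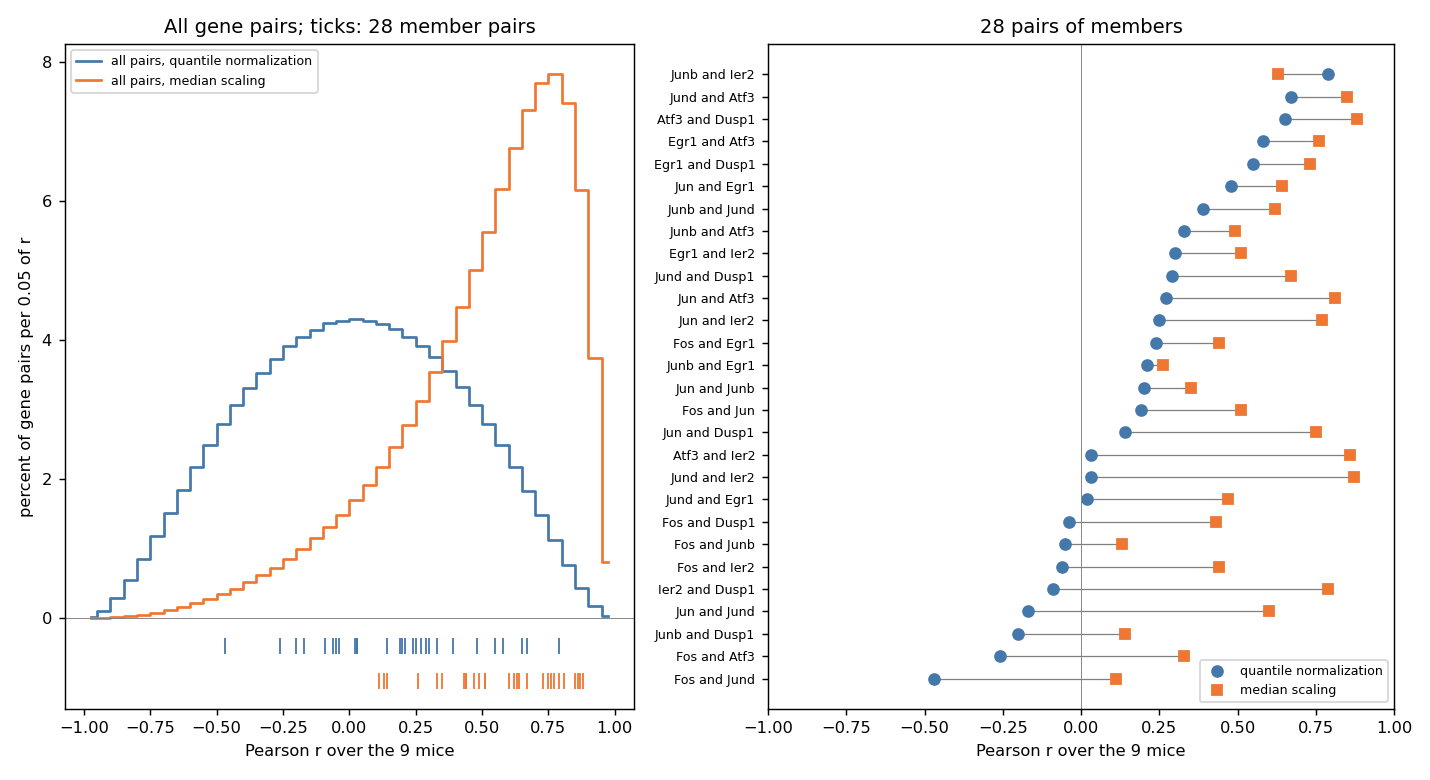
Left, percent of all pairs of genes detected on all 9 arrays (y axis) by Pearson r over the 9 mice (x axis, bins of 0.05), after quantile normalization (blue) and median scaling (orange), with the 28 member pairs as ticks. Right, r of each member pair on both scales; the median moves from 0.21 to 0.61, along with that of all gene pairs.

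The genes most like Fos and Egr1 over the mice were then sought outside the lists of members, pathway genes and markers. For Fos they were D5Ertd679e (r = 0.93), BC027088 (0.91), Pnn (0.91), Mrpl24 (0.91) and 4930588M11Rik (0.88), of which Pnn encodes a splicing-associated protein and Mrpl24 a mitochondrial ribosomal protein. For Egr1 they were Mrpl48 (0.84), 0610037H22Rik (0.83), Atad1 (0.83), 2010100O12Rik (0.81) and Mrpl2 (0.81). These r values over 9 mice are the highest among 5991 genes and are given as a description. Adjusted p-values of their slopes were 0.999 for each of the genes of Fos and 1 for each of those of Egr1. Of the other genes detected on all arrays, 40.2% had a higher r with Fos than Jun did. Over the members this share ran from 33.9% for Egr1 to 95.3% for Jund. With Egr1, 1.84% had a higher r than Atf3 did, the smallest share among the members. The largest was 51.8%, for Jund.

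The wider early response was described with lists of other genes, by the mean r of a gene with the 8 members. Over all other detected genes this mean had a median of 0.03 and quartiles of -0.09 and 0.16. Of 20 other immediate early transcription factors, 12 were detected on all arrays, with a median mean r of -0.00. The highest were Klf6 (0.27), Cebpb and Srf (0.18 each) and Klf10 (0.15), of which Srf is the serum response factor itself, and the lowest were Nr4a3 (-0.28) and Cebpd (-0.31). Of 27 other regulators and secreted factors, 16 were detected on all arrays, with a median of -0.02. Gadd45a (0.30), a DNA damage gene, and Areg (0.29), an EGF receptor ligand, were at the top, followed by Rhob (0.21) and Zfp36 (0.10), and Zfp36l2 (-0.25) and Gadd45b (-0.33) were at the bottom. Adjusted p-values of the feed test called 0 genes of either list. Unadjusted values below 0.05, which 5.45% of all genes had, were found for Ier5 and Zfp36l1.

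Regulators of MAP kinase signalling were described in the same way. Of 10 other MAP kinase phosphatases with a probe, 4 were detected on all arrays, Dusp8 (0.22), Dusp16 (0.04), Dusp6 (0.03) and Dusp14 (0.02). Upstream kinases and factors had the highest median among the pathway lists, 0.20 over 9 genes, above the upper quartile of 0.16 over all genes, with Mapk3 and Rps6ka1 (0.34 each), Map2k4 (0.31) and Map2k1 (0.21) at the top and Elk3 (-0.22) at the bottom. Other partners of AP-1 and ATF proteins had a median of -0.03 over 8 genes, from Batf2 (0.22), Mafk (0.13) and Mafg (0.01) to Atf4 (-0.08) and Atf7 (-0.15). None of the 3 lists held a gene called between feeds. Of their genes Jdp2 (Jundm2 in the files) alone had an unadjusted p of the F test below 0.05, compared with 5.45% of all genes.

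Single genes outside the members are given as examples. Zfp36, whose product speeds the decay of early response mRNAs, had an r of 0.75 with Fos (exact p = 0.023, rho 0.77, exact p = 0.0214), 0.78 without the 2 farthest mice, 0.77 within feeds and 0.76 after median scaling. This was the highest r with Fos among the measured genes of the pathway lists, so its p-values are those of an extreme. Cdkn1a, a cell cycle inhibitor from the list of glucocorticoid targets, chosen for this comparison after its values were seen, had an r of 0.86 with Jund (exact p = 0.00679, rho 0.80, exact p = 0.0138), 0.94 without the 2 farthest mice and 0.76 within feeds. Adjusted over all genes, neither slope passed (adjusted p = 0.999 and 0.353, limma).

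Markers of other cell types were set beside the members in the same way. The B cell list had the lowest median mean r of the marker lists with a value, -0.43 over the 2 genes detected on all arrays. The summed signal of its 6 markers had an r of -0.71 with Atf3, -0.67 with Jun and -0.53 with Dusp1, but -0.14 with Fos and -0.12 with Ier2. This sum was 9.75 and 9.58 in mice 1 and 3 of feed K and 12.38 in mouse 4. In feed B it was between 11.69 and 12.45, and in feed G between 11.24 and 12.40. Csf1r, a receptor of macrophages, had the lowest r with Fos among all markers, -0.88 (exact p = 0.00217, rho -0.88, exact p = 0.00308). It was -0.84 without the 2 farthest mice, -0.91 within feeds and -0.71 after median scaling. The slope did not pass over all genes (adjusted p = 0.999, limma). Csf1r was chosen by this extreme value, and 4 other myeloid markers had an r with Fos of 0.54 for S100a8, 0.33 for Cd68, -0.01 for Itgam and -0.11 for Adgre1. Of these, S100a8, Cd68 and Itgam were detected on 1, 4 and 5 arrays. The summed signal of the 5 measured on every array had an r of -0.19 with Fos. Myh11, a smooth muscle myosin, had an r of 0.53 with Fos (exact p = 0.133, rho 0.68, exact p = 0.0503) and 0.23 without the 2 farthest mice. The summed signal of the 7 smooth muscle markers was between 16.46 and 16.68 in feed B, 16.34 and 16.79 in feed K, and 16.02 and 16.71 in feed G. For the 6 enterocyte markers the summed signal was between 21.05 and 21.82, 21.52 and 21.73, and 21.37 and 21.83, respectively. The summed signal of the 4 ileum markers was 16.98, 15.82 and 18.45 in mice 7, 8 and 10 of feed B. It was 15.97, 15.91 and 15.96 in mice 1, 3 and 4 of feed K, and 15.30, 15.29 and 19.69 in mice 4, 8 and 11 of feed G. Fabp6 had an r of -0.66 with Fos, -0.54 with Jun and 0.61 with Jund, given as a description over 9 mice, in 1 of which Fabp6 was not detected. The part of cell composition and of the site of sampling in the members' values was not tested.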

How the data were processed

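RNA of 9 jejunal samples was measured on single-colour Applied Biosystems arrays, 33012 probes each, read by chemiluminescence. The scanner files that the authors deposited give each spot's signal intensity, a signal-to-noise score and a quality flag score. A series table, also deposited, repeats the files' assay-normalized signals, which are linear intensity values. Its columns had medians between 1.06 and 1.53, and what it was scaled to is not given in the sources used here. After log2 transformation it served as an alternative.

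Spots flagged above 5000 were dropped. As in the study's methods, quantile normalization used the arithmetic mean over the 9 arrays, followed by log2 and by the mean over a symbol's probes. A spot with a signal-to-noise score of 3 or above was taken as detected. Feeds were compared with lmFit and eBayes of limma 3.58.1 under R 4.3.3 (Benjamini-Hochberg adjustment over 9856 genes detected on at least 3 arrays, call at 0.05). Slopes on a member were fitted likewise over the genes detected on all 9 arrays. The fits were tested on simulated data. Pairs of members have exact two-sided permutation p-values over all 362880 orders of the mice. Other steps used Python 3.11.15, numpy 2.4.6, pandas 2.3.3, scipy 1.17.1 and matplotlib 3.10.9. Groups and mouse numbers come from the labels. The number of arrays limits the precision. List genes absent under their current symbol were sought by accession or synonym, and keep the current symbol here. Promoter windows and gene positions are from RefSeq, GRCm38.p6, and 8 of 10 members had a window.

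The members and lists were chosen with earlier results of these data known. Named were all members, of each pathway list up to 4 genes with the highest and the 2 with the lowest mean r with the members and any gene called between feeds, the 5 genes most like Fos and the 5 most like Egr1, and markers with the highest or lowest r with Fos. Of the markers, those the text turns on are given, and some genes that the rule names are not reported here. Alternatives tried were scaling by the median, the series table, a gene's brightest probe, keeping failed spots, a floor at percentile 5, dropping dim spots (signal-to-noise below 1), other filters on dim genes, an unmoderated F test, feed as a covariate, and leaving out each mouse.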

Additional observations from a re-analysis of the deposited data

How the results depend on the processing

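No member was called between feeds under any alternative that was run. Counts over all genes moved little. Dropping dim spots (signal-to-noise below 1) called 3 genes in the F test, 4 for G minus B and 3 for G minus K. With genes detected on all 9 arrays the F test and G minus B called 1 gene each, and an unmoderated F test called 1. Leaving out each mouse in turn gave between 0 and 3 genes in the F test, between 0 and 10 for K minus B, and between 0 and 3 for G minus B, with the highest counts without mouse 10 of feed B.

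Member pairs with an r of 0.8 or more numbered 0, and 5 after median scaling, 2 in the series table, 1 with the share of detected probes regressed out and 1 with Spearman rho. Leaving out each mouse gave between 0 and 1. Without Jund, an alternative added after seeing the data, there were 0 of 21 pairs, and 3 after median scaling. Of 5991 genes tested, those called for co-variation with a member numbered 0 for each member. After median scaling they numbered 928 for Jund, 1741 for Atf3, 3193 for Ier2 and 2057 for Dusp1. Slopes on genes other than members were not fitted, so these counts have no background to be set against. The series table gave 3 for Jund and 1231 for Dusp1. Feed as covariate gave 1 for Ier2, and leaving out each mouse gave between 0 and 1 for Atf3, the latter without mouse 4 of feed K. For Fos, Jun, Junb and Egr1 the count stayed at 0 throughout. The cause of the counts after median scaling was not tested.

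Of 534 log2 differences of members between feeds under an alternative, 14 changed sign with a shift above their SE, none of them called. An exact permutation F test over all genes was not run, and the array as a block could not be fitted, since no batch of more than 1 array is recorded. No paired analysis was possible because no pair of feeds shares more than 1 mouse number.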

Other observations

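Lists of genes that answer to time of day, heat and stress hormones were also examined. Of 13 core clock genes detected on at least 3 arrays, 9 had an unadjusted p of the feed F test below 0.05 (Arntl, Per2, Nr1d1, Nr1d2, Dbp, Tef, Hlf, Nfil3 and Bhlhe40), compared with 5.45% of all genes, and none passed the adjusted threshold. Nfil3, a repressor of the clock output, differed by -1.14 ± 0.18 for G minus B (log2, SE, adjusted p of the F test 0.67, limma). Arntl, which drives the clock, differed by -2.12 ± 0.45 and Tef, an output factor, by 2.08 ± 0.45 for the same feeds (adjusted p of the F test 0.739 each). The time of sampling was not randomized, and feed and time of day cannot be told apart. No member had an unadjusted p of the feed F test below 0.05. The median mean r of the 8 clock genes detected on all arrays with the members was -0.03. Clock genes went in both directions between feeds, so this median does not tell how far members went with single clock genes.

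Of 6 heat shock genes with a probe, Hsph1 (Hsp105 in the files) and Dnajb1, both chaperone genes, had an unadjusted p below 0.05. Of all genes tested, 5.45% had an unadjusted p of the F test below 0.05. Hsph1 differed by 2.37 ± 0.56 and Dnajb1 by 1.07 ± 0.34 for G minus K (adjusted p of the F test 0.739 and 0.886, limma). The 6 genes had a median SD over the mice of 0.59 and a median mean r with the members of -0.12. Of 7 glucocorticoid targets detected on at least 3 arrays, Fkbp5, Tsc22d3 and Klf9 had an unadjusted p below 0.05, beside the same 5.45% of all genes. None passed the adjusted threshold, and Fkbp5 was detected on 3 arrays only. Tsc22d3, which encodes a mediator of glucocorticoid action, differed by 0.90 ± 0.31 for G minus B (adjusted p of the F test 0.886).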
